A study of Homo sapiens with 16 samples.

Results

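Genes that bring long-chain fatty acids into the cell and join them to coenzyme A were examined in HepG2, a cell line from a human liver tumour, after exposure to 1 of 3 fatty acids. The 10 genes, of 15240 named on the array, were chosen by name: the uptake proteins CD36, SLC27A2, SLC27A4 and SLC27A5, the acyl-CoA synthetases ACSL1, ACSL3, ACSL4 and ACSL5, and the acyl-CoA binding proteins DBI and ACBD3. Each of the 10 had exactly 1 probe among the 30968 probes of the array, so that no member lacked a probe and none had a second probe to set beside the first.

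The study held 4 groups of 4 biological replicates, all kept in serum-free medium for 7 days. The control received no fatty acid, and the others received elaidic, oleic or stearic acid at 100 µM. Elaidic and oleic acid are isomers that differ in the geometry of their double bond, trans in the former and cis in the latter, while stearic acid is the saturated acid of that chain length. All groups share this 1 tumour line. The labels do not say how the biological replicates were separated, so that p-values measure the spread between these samples, which may be technical. In such bulk RNA, fewer cells of a kind and less RNA per cell cannot be told apart.

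A free fatty acid is chemically inert in most of metabolism until an acyl-CoA synthetase links it to coenzyme A in a reaction that uses ATP. Membrane proteins such as CD36 and the SLC27 family, also called fatty acid transport proteins, aid its entry, and several SLC27 members are themselves acyl-CoA synthetases. The activated acyl-CoA is bound by DBI and related proteins and passed on to triglyceride and phospholipid synthesis, to cholesterol esters or to oxidation. In liver these steps feed lipid storage, lipoprotein secretion and mitochondrial and peroxisomal oxidation.

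The 16 samples fall into 2 ranges of array numbers in the labels, called slide series A and B. Control and oleic acid lie wholly in series A (10 samples) and stearic acid wholly in series B (6 samples), and the elaidic acid group is split, with replicates 2 and 4 in A and replicates 1 and 3 in B. Stearic acid and slide series therefore cannot be told apart against control or oleic acid, except through the elaidic acid samples that lie in both. Median intensity ran from 20.0 to 72.8 in the control samples, from 20.7 to 49.4 with oleic acid, from 25.5 to 57.8 with elaidic acid and from 45.8 to 76.1 with stearic acid. Values below are quantile-normalised log2 intensity unless another scale is named, and differences carry the standard error (SE) of limma's model over all 16 samples. A difference passed at a Benjamini-Hochberg adjusted p under 0.05 over 22939 probes. The same difference with slide series as a block is the value within a series wherever both groups share one. All 8 hepatocyte markers with a probe had a median above 50 on the median-scaled scale in every group. Among 17 markers of macrophages, endothelium, fat and blood cells with a probe, CD14, CD163, MARCO, CDH5, LEP and CD3D had a median above 50 over all samples (84.6 to 9423) and the other 11 one of 41.8 or less, with FABP4 at 3.48 and MSR1 at 9.84.

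ACSL4 was the 1 member whose rise with elaidic acid passed against both control and the cis isomer, and neither call held with slide series as a block. Its elaidic acid samples were the highest of their own slide series in A and in B. In ACSL3, SLC27A2 and DBI every sample of series B lay above every sample of series A, as in 12.1% of all probes, and ACBD3 showed the same split. The elaidic acid samples lie on both sides of it. SLC27A4, SLC27A5 and CD36 were dim and scattered, and no member passed between oleic acid and control. ACSL3 and SLC27A2 were dim too, with control means of 2.32 and 3.88 beside 4.88 for SLC27A4.

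**Figure D1:**
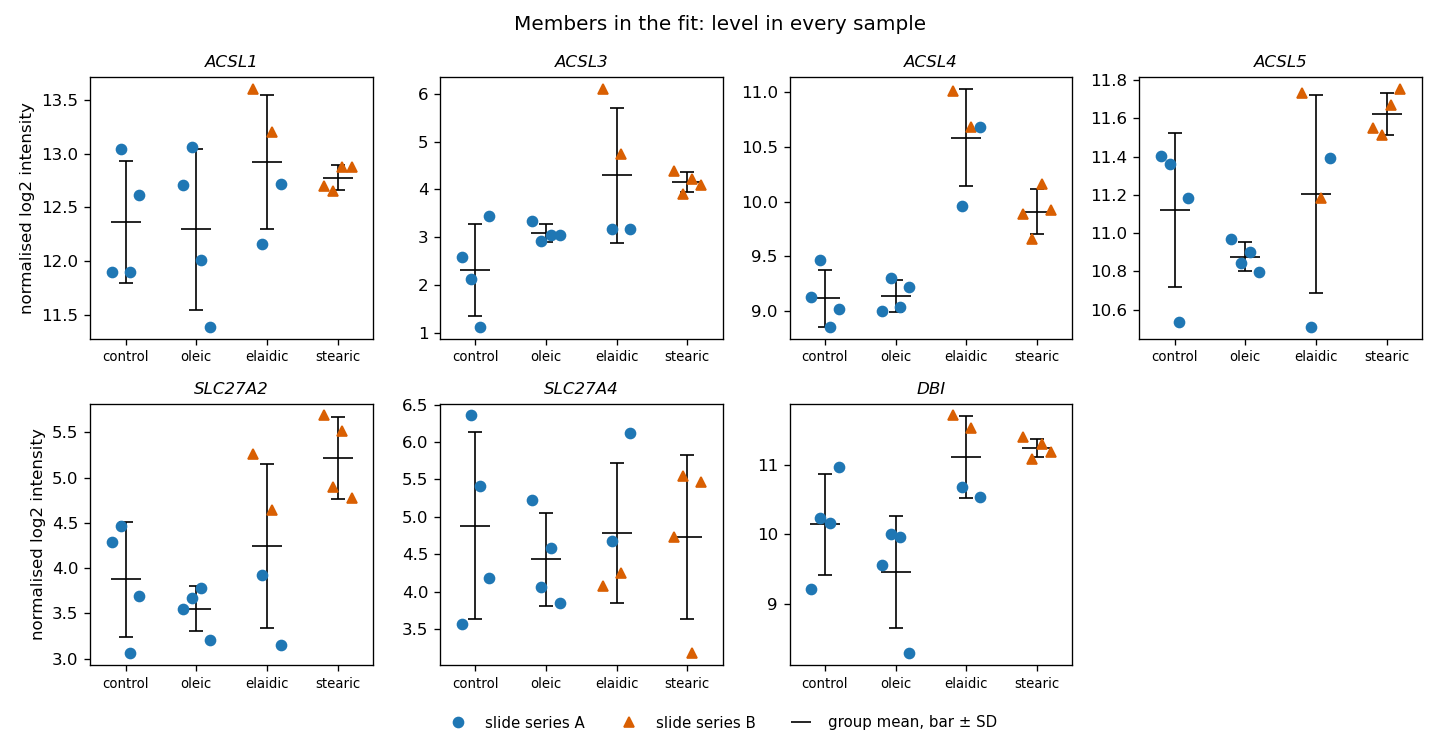
Normalised log2 intensity (vertical axes, a separate range for each gene) of the 7 members in the fit, by group on the horizontal axes. Each point is 1 sample, circles for slide series A and triangles for series B, with the group mean and an SD bar (n = 4). ACSL4 lies between 9.96 and 11.01 with elaidic acid and at most at 10.16 in every other sample, and SLC27A2 and DBI are high in the triangles.

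ACSL4 encodes the synthetase that prefers arachidonic acid and other polyunsaturated fatty acids and so shapes the phospholipids of membranes. Its level was 9.13, 9.47, 8.86 and 9.02 in control replicates 1 to 4. With oleic acid it was 9.00, 9.31, 9.04 and 9.22. With elaidic acid the level was 11.01, 9.96, 10.69 and 10.68. Every elaidic acid sample thus lay above every control and every oleic acid sample. With stearic acid the values were 9.89, 9.66, 10.16 and 9.93, also above all control samples and overlapping elaidic acid replicate 2 alone.

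Against control, ACSL4 rose by 1.47 ± 0.24 with elaidic acid, a fold of 2.76 (SE, n = 4 per group; limma adjusted p = 0.014). The exact permutation p was 0.0286, which is the minimum for 4 against 4 samples. It was the 1 of 7 tested members that passed in this comparison, where 0.323% of all probes passed in either direction. It was also the 1 member whose elaidic acid samples were all above the control samples, as in 3.82% of all probes. Within series A the difference was 1.20 ± 0.26 and both elaidic acid samples were above all 4 control samples, as in 7.17% of all probes (exact permutation p = 0.0667, the minimum for 2 against 4). With slide series as a block the limma p was 4e-04 before adjustment, and the call was lost at adjusted p = 0.146, where 0 of 7 members and 0.0392% of all probes passed. It was also lost without normalisation (limma adjusted p = 0.439), in a fit of these 2 groups alone (0.421), and without control replicate 3, elaidic acid replicate 1 or elaidic acid replicate 3 (0.0553 to 0.065), with differences of 1.32 to 1.68 over these 5 settings. The summed median-scaled intensity of the 8 hepatocyte markers moved with the group as well, from 75894 to 113661 with elaidic acid and from 32458 to 57812 in control. With oleic acid it ran from 30457 to 76700, and its part in either result was not tested. The sum is weighted to its brightest probes, so it does not show that all 8 markers moved together. Over all samples the median was 35852 for APOA1 and 12681 for TTR, 8005 for APOB and 7655 for SERPINA1. For TF, FGB, FGG and AHSG it was at most 838.

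Between the isomers ACSL4 was higher in the trans than in the cis group by 1.45 ± 0.24, a fold of 2.72 (SE, n = 4 per group; limma adjusted p = 0.0183). It was again the 1 of 7 members past the threshold, against 0.318% of all probes. ACSL4 and DBI were the 2 members without overlap between the isomers, in the pooled groups, where 4.07% of all probes were higher without overlap, and within series A, where 6.29% were. The difference of ACSL4 within series A was 1.18 ± 0.26 (exact permutation p = 0.0667; limma adjusted p = 0.213 with the block, where 0 members and 0.0218% of probes passed). Oleic acid and control were 0.02 apart in this gene (95% interval -0.48 to 0.52). The call between the isomers was lost without normalisation (limma adjusted p = 0.408), in a fit of these 2 groups alone (0.328), and without oleic acid replicate 3, elaidic acid replicate 1 or elaidic acid replicate 3 (0.0783 to 0.0811).

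Against stearic acid, which has no double bond, ACSL4 was at a difference of 0.68 ± 0.24 that did not pass (limma adjusted p = 0.22). Within series B, where 2 elaidic acid samples stand beside all 4 stearic acid samples, it was 0.94 ± 0.26, and both elaidic acid samples were above all stearic acid samples (exact permutation p = 0.0667). So were those in ACSL1, ACSL3 and DBI, or 4 of 7 members, where 11.1% of all probes were higher without overlap. In ACSL4 the elaidic acid samples of each slide series were thus above every other sample of their own series. Such a pattern was seen in 153 of 22939 probes (0.667%) and in no other tested member.

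The sequence upstream of the start of ACSL4 is shown with that of ACSL3, because these 2 synthetases had the largest differences between elaidic acid and control. The difference of ACSL3 did not pass (limma adjusted p = 0.156). It came from a dim probe that followed the slide series and was 0.86 ± 0.49 within series A. RefSeq on GRCh38.p14 lists 1 start for each of these 2 genes. The 250 bases before the start, written in the direction of transcription, lie at chrX:109733258-109733507 on the minus strand for ACSL4 and at chr2:222860786-222861035 on the plus strand for ACSL3. Capitals mark a GC box (GGGCGG) or a CCAAT box (CCAAT) on either strand.
ACSL4: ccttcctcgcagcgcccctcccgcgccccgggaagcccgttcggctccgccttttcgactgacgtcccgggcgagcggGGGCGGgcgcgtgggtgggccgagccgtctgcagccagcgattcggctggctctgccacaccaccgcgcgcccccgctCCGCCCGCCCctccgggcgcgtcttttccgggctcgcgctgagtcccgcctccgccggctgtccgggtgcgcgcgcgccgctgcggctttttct
ACSL3: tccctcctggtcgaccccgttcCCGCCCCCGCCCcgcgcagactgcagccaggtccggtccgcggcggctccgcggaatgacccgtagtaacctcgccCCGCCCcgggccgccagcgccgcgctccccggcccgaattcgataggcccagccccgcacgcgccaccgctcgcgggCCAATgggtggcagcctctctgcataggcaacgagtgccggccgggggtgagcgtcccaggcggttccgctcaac
Both windows hold 3 matches to the GC box, overlapping or adjoining in part, and ACSL3 holds 1 CCAAT box as well. Among 35116 windows of the same length 42.6% hold the GC box and 32% the CCAAT box. All 10 members matched the RefSeq table by symbol, with 23 starts between them. A core of the sterol regulatory element (TCACNCCAC, both strands) stood upstream of 1 of the starts of ACSL1 and of no other member, and is found in 0.883% of all windows. The direct repeat to which peroxisome proliferator receptors bind (AGGTCA, any base, then AGGTCA again, both strands) was in none of the members' windows and in 0.0171% of all windows. These matches describe letters, not binding.

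ACSL3, a synthetase of the endoplasmic reticulum and of nascent lipid droplets, gave a dim signal that followed the slide series. Its level was 2.59, 2.12, 1.13 and 3.44 in control and 3.35, 2.92, 3.05 and 3.05 with oleic acid. In the elaidic acid samples of series B it was 6.10 and 4.74, and in those of series A it was 3.17 and 3.18. With stearic acid, all in series B, it was 4.39, 3.92, 4.21 and 4.10. No sample of series A reached the lowest of series B.

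The difference of ACSL3 between elaidic acid and control was 1.98 ± 0.56 (SE, n = 4 per group; limma adjusted p = 0.156) and did not pass. Within series A it was 0.86 ± 0.49. Between the isomers it was 1.21 ± 0.56, or 0.08 ± 0.49 within series A, so that most of the pooled difference was not seen among samples of one series. In series B, by contrast, ACSL3 was 1.27 ± 0.49 above stearic acid with both elaidic acid samples above all 4 stearic acid samples (exact permutation p = 0.0667; limma adjusted p = 0.685 with the block). The step from series A to B in the blocked model was 2.25 ± 0.56 (limma adjusted p = 0.0407), and 4.05% of all probes passed for that step.

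ACSL1, the main long-chain synthetase of hepatocytes, gave the brightest signal of its own probe in series B with elaidic acid. Its values were 11.89, 13.05, 11.89 and 12.62 in control and 12.71, 13.07, 12.01 and 11.39 with oleic acid. With elaidic acid they were 13.60, 12.16, 13.20 and 12.72, and with stearic acid 12.70, 12.66, 12.87 and 12.88. All 4 groups overlapped, and the spread was widest among the oleic acid samples (SD 0.75) and narrowest with stearic acid (SD 0.12). The difference between elaidic acid and control was 0.56 (95% interval -0.26 to 1.38) and did not pass, with 0.08 within series A. Within series B both elaidic acid samples were above the stearic acid samples, by 0.63 ± 0.43 (exact permutation p = 0.0667).

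ACSL5, a synthetase of mitochondria and the endoplasmic reticulum, was lowest with oleic acid and highest with stearic acid. The oleic acid samples were at 10.97, 10.84, 10.90 and 10.80. The stearic acid samples were at 11.55, 11.51, 11.67 and 11.75, with no overlap with oleic acid or control. The control samples ran from 10.53 to 11.40 and the elaidic acid samples from 10.51 to 11.73. ACSL5 differed by -0.74 ± 0.26 between oleic and stearic acid and passed (limma adjusted p = 0.0353), though when 1 of these 8 samples was left out it passed only without oleic acid replicate 1 (limma adjusted p = 0.0466, and 0.0504 to 0.0806 for the others). With slide series as a block the value was -0.24 ± 0.42 (limma adjusted p = 0.999). Between elaidic acid and control ACSL5 was 0.08 apart (95% interval -0.47 to 0.64).

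DBI, the acyl-CoA binding protein that carries activated fatty acids in the cytosol, was lower with oleic acid than with elaidic acid in every sample. Its level was 9.21, 10.24, 10.16 and 10.97 in control. With oleic acid it was 9.56, 10.01, 9.97 and 8.30. With elaidic acid the values were 11.71, 10.68, 11.52 and 10.54, where replicates 1 and 3 belong to series B, and with stearic acid 11.39, 11.09, 11.30 and 11.19. Control replicate 4 was the 1 control sample above any elaidic acid sample.

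Between the isomers the difference of DBI was 1.65 ± 0.41, a fold of 3.15, which did not pass over all probes (SE, n = 4 per group; limma adjusted p = 0.115; exact permutation p = 0.0286). It passed when the test was held to the brighter 50% of probes (limma adjusted p = 0.0476). Within series A it was 1.15 ± 0.47 with no overlap (exact permutation p = 0.133). The difference from control, 0.97 ± 0.41, did not pass either (limma adjusted p = 0.317) and was 0.47 ± 0.47 inside series A. Within series B both elaidic acid samples were above all stearic acid samples by 0.37 ± 0.47 (exact permutation p = 0.0667).

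SLC27A2, a very-long-chain acyl-CoA synthetase and fatty acid transporter of liver, had, among the 7 fitted members, the largest difference between stearic and oleic acid after DBI. Its values were 4.29, 4.47, 3.06 and 3.69 in control and 3.55, 3.67, 3.78 and 3.21 with oleic acid. With stearic acid they were 5.69, 4.90, 5.51 and 4.77, above all 8 of those samples. With elaidic acid they were 5.26 and 4.64 in series B but 3.93 and 3.16 in series A, so that the group split along the slide series. The probe was dim, and the gap between all samples of the 2 series depended on the scale. On median-scaled intensity elaidic acid replicate 3 of series B, at 24.0, was below control replicates 1 and 2, at 27.2 each. In deposited intensity it was at 31.2, above all samples of series A. Within series A elaidic acid differed from control by -0.34 ± 0.40, and within series B it differed from stearic acid by -0.27 ± 0.40. The pooled difference from control, 0.37 ± 0.41, had the opposite sign and did not pass.

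Against control 3 of 7 members passed with stearic acid, all higher, where 29.8% of all probes passed in either direction and 15% were higher. The summed hepatocyte markers, weighted to APOA1 and TTR as given above, moved with the group, from 74937 to 107089 with stearic acid against 32458 to 57812 in control. The sum of the 2 blood cell markers ran from 4728 to 8353 against 9269 to 20076, and that of the 5 adipocyte markers from 1018 to 1532 against 1719 to 4694. Each of these 2 sums was in effect 1 bright probe, not a measure of blood or fat cells. Over all samples the median was 9423 for CD3D and 24.4 for PTPRC, and 2404 for LEP and at most 24.0 for the other adipocyte markers. The part of the marker sums in the results was not tested. In 5 members all stearic acid samples were above all control samples, as in 18.7% of all probes. Those that passed were ACSL3 at 1.84 ± 0.56, ACSL4 at 0.79 ± 0.24 and SLC27A2 at 1.34 ± 0.41 (SE, n = 4 per group; limma adjusted p = 0.0256, 0.0237 and 0.026). DBI was at 1.09 ± 0.41 (limma adjusted p = 0.0564) and ACSL5 at 0.50 ± 0.26 (limma adjusted p = 0.142), and neither passed. With slide series as a block these 5 values were -0.41 ± 0.69, 0.26 ± 0.37, -0.07 ± 0.57, 0.09 ± 0.66 and -0.01 ± 0.42, and 0 of 7 members and 0 of 22939 probes passed limma. At an unadjusted p under 0.05 that blocked fit held 0 members and 7.45% of all probes. The call of ACSL3 ended without normalisation (limma adjusted p = 0.0605) and with an offset of 50, where its difference was 0.31 (0.213) and that of SLC27A2 was 0.43 (0.0283), and the call of SLC27A2 ended with values floored at 1 (0.051). Leaving out 1 sample gave 0 to 4 members called: 0 without control replicate 3, stearic acid replicate 1 or stearic acid replicate 3, and only SLC27A2 without control replicate 1 or stearic acid replicate 4. Of all 22939 probes 3571 to 8213 passed in the fits with 1 sample left out.

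Between oleic and stearic acid 4 of 7 members passed, all lower with oleic acid, where 39.5% of all probes passed in either direction and 18.4% were lower. In 5 members, these and ACSL3, all oleic acid samples were below all stearic acid samples, as in 21.2% of all probes. DBI differed by -1.78 ± 0.41 and SLC27A2 by -1.67 ± 0.41 (SE, n = 4 per group; limma adjusted p = 0.00671 and 0.00873). ACSL4 differed by -0.77 ± 0.24 (limma adjusted p = 0.0219), and ACSL5 is given above. With the slide series block 0 members and 0% of probes passed limma, with DBI at -0.78 ± 0.66, SLC27A2 at -0.26 ± 0.57 and ACSL4 at -0.24 ± 0.37, and 0 members had an unadjusted limma p under 0.05 (6.6% of all probes). Only 2 members passed, SLC27A2 and DBI, without stearic acid replicate 1 or without stearic acid replicate 3, where 5247 and 6041 of all probes passed.

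**Figure D2:**
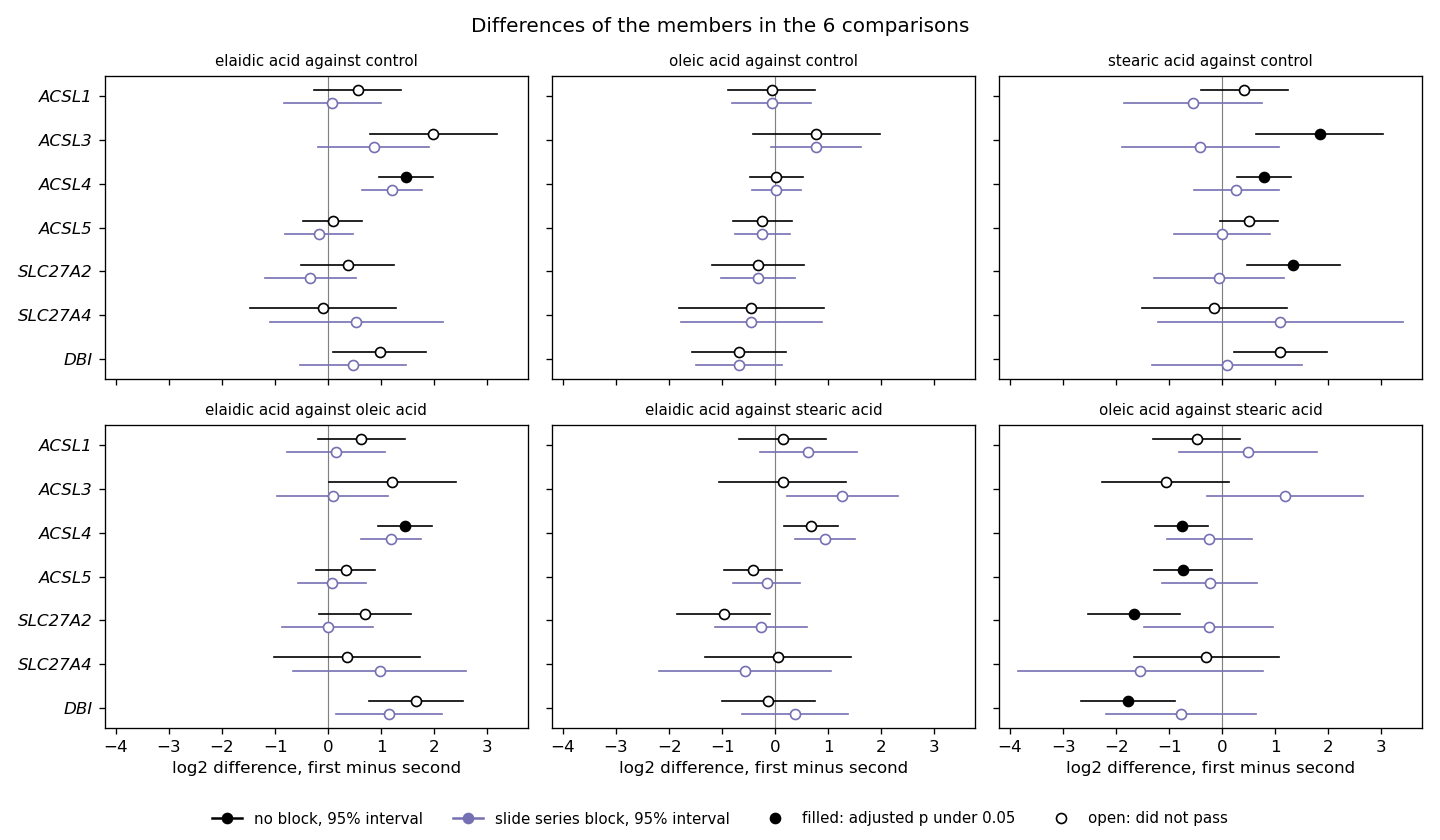
Log2 differences (horizontal axes, first group minus second) of the 7 members in the fit, 1 panel for each of the 6 comparisons, with 95% intervals. Black is limma over all 16 samples and violet the same model with slide series as a block, and filled points passed an adjusted p under 0.05. ACSL4 stays near its place with the block in the comparisons of elaidic acid with control (1.47 and 1.20) and oleic acid (1.45 and 1.18), while no violet point is filled.

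Oleic acid and control, which share slide series A, gave 0 of 7 members called by limma and 0 at an unadjusted p under 0.05, while 0 of 22939 probes passed (0%) and 602 (2.62%) had an unadjusted p under 0.05. The block leaves these differences as they are and gave 0 calls too. The largest differences were 0.77 for ACSL3 (95% interval -0.42 to 1.97) and -0.69 for DBI (95% interval -1.57 to 0.20). ACSL1 was at -0.07 (-0.89 to 0.75), SLC27A2 at -0.32 (-1.20 to 0.55), SLC27A4 at -0.45 (-1.82 to 0.92) and ACSL5 at -0.24 (-0.79 to 0.31). The interval of ACSL4, which ends at 0.52, does not reach its difference between elaidic acid and control, 1.47 pooled and 1.20 within series A. That of DBI ends at 0.20, below 0.97 pooled and 0.47 within series A, neither of which passed. The interval of ACSL3 ends at 1.97, just short of its pooled 1.98, but holds its 0.86 within series A. Those of ACSL1 and SLC27A2 hold both of theirs (0.56 and 0.08, 0.37 and -0.34). The elaidic acid differences carry errors of their own, so an interval that misses one is not a test between the acids.

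Between elaidic and stearic acid 0 of 7 members passed limma, where 0.397% of all probes did, and 2 members had an unadjusted p under 0.05, as had 14.5% of all probes. These were ACSL4, given above, and SLC27A2 at -0.97 ± 0.41 (SE, n = 4 per group; limma adjusted p = 0.296). With the slide series block, which compares samples of series B, ACSL4 and ACSL3 had an unadjusted limma p under 0.05 (5.82% of all probes), both higher with elaidic acid, and 0 passed (0.00436% of all probes). Across the 7 tested members the median difference was 0.56 between elaidic acid and control, where all probes had a median of -0.10. With the block these medians were 0.47 and 0.02. Between the isomers the members' median was 0.69 against -0.13 for all probes, and with the block 0.15 against 0.01.

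SLC27A4, a transporter and synthetase found in many tissues, was dim and scattered in every group. It ran from 3.56 to 6.35 in control, from 3.85 to 5.23 with oleic acid, from 4.08 to 6.13 with elaidic acid and from 3.18 to 5.55 with stearic acid. The 4 group means lay between 4.43 and 4.88, and the SD within groups was 0.62 to 1.25. None of the 6 differences passed, and that between elaidic acid and control was -0.10 with a wide interval (95% interval -1.46 to 1.27).

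ACBD3, SLC27A5 and CD36 each had a value at or below 0 in at least 1 sample and were left out of the model, since such a value has no logarithm. They were compared on linear intensity scaled to a common median, with an exact permutation test (two-sided) for each of 18 comparisons, 3 genes by 6 pairs of groups. With 4 against 4 samples, at least 11 of the 18 would have to reach the smallest possible p for any to pass after adjustment, so that none passing (lowest adjusted p = 0.257) says little.

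ACBD3, a Golgi protein with an acyl-CoA binding domain, split entirely by slide series. In the elaidic acid group the scaled intensity was 113 and 91.9 in series B and -1.74 and 2.23 in series A. With stearic acid, all in series B, it was 122, 68.1, 109 and 99.4. The 4 control samples were at 24.3, 17.6, 5.16 and 8.23 and the oleic acid samples at 13.9, 9.89, 12.2 and 9.48. All 6 samples of series B were at 68.1 or more and all 10 of series A at 24.3 or less, on the same probe and with the same acid in the elaidic acid group.

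Stearic acid was above control by 85.8 in ACBD3 (exact permutation p = 0.0286), and series and acid cannot be told apart there except through the elaidic acid samples. On log2 values floored at 1 that difference was 3.26 ± 1.27 and turned to -3.26 ± 0.67 with slide series as a block, and that between oleic and stearic acid turned from -3.37 ± 1.27 to 3.15 ± 0.67, none of which passed limma. Elaidic acid differed from stearic acid by 2.66 within series B (exact permutation p = 0.933). Within series A it differed from control by -13.6 (exact permutation p = 0.133) and from oleic acid by -11.1 (exact permutation p = 0.0667), with both elaidic acid samples below all 8 others. With values floored at 1 and slide series as a block, a setting chosen after seeing the data, elaidic acid was below control by -3.17 ± 0.47 on the log2 scale (limma adjusted p = 0.0396, where 0.0323% of 30968 probes passed). That value rests on the floor, and against oleic acid it was -3.06 ± 0.47 (limma adjusted p = 0.0509).

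SLC27A5, a bile acid and very-long-chain acyl-CoA synthetase of liver, stayed near background. Its scaled intensity was 21.6, 12.8, -0.97 and 5.19 in control, 7.77, 9.74, 1.69 and -2.74 with oleic acid, and 2.19 to 11.2 with stearic acid. With elaidic acid it ran from just below 0 to 5.83. The groups overlapped in all 6 comparisons, with an exact permutation p of 0.143 or more.

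CD36, the scavenger receptor that aids fatty acid entry in muscle, fat and macrophages, also stayed near background, at most 22.2 in deposited intensity. Its scaled intensity was 18.2, 3.83, 6.01 and 8.03 in control and -2.77, 7.12, 12.1 and -1.56 with oleic acid. With elaidic acid it was 13.7, 17.5, 10.1 and 11.8, and with stearic acid 10.2, 8.88, 5.09 and 12.97. The largest difference, 9.55 between elaidic and oleic acid, had an exact permutation p of 0.0857, and the groups overlapped.

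**Figure D3:**
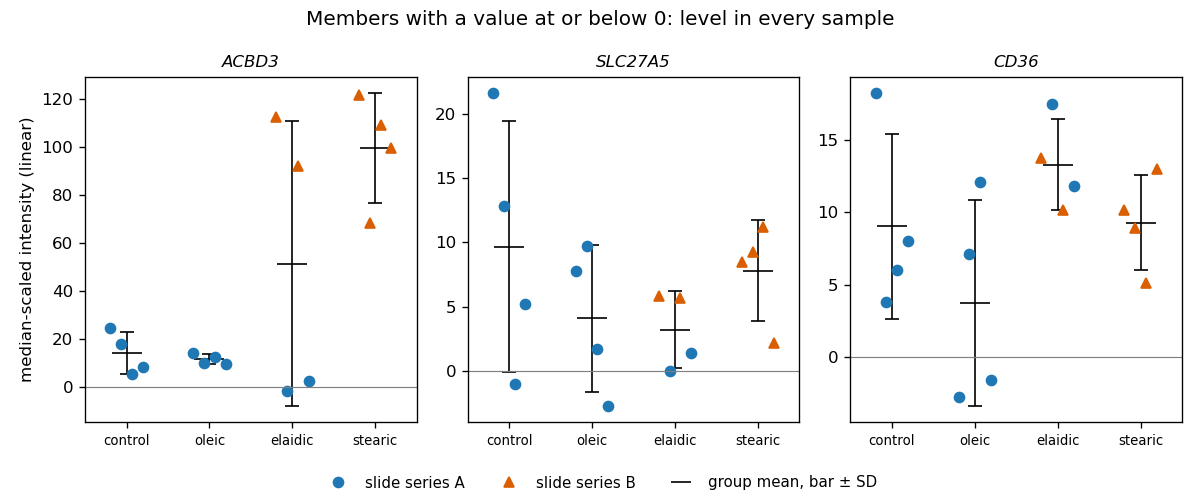
Median-scaled linear intensity (vertical axes, a separate range for each gene) of ACBD3, SLC27A5 and CD36 by group. Points are samples, circles for slide series A and triangles for series B, with the group mean and an SD bar (n = 4), and the grey line is 0. In ACBD3 all triangles are at 68.1 or higher and all circles at 24.3 or lower, also inside the elaidic acid group, while SLC27A5 and CD36 overlap in all groups.

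The other genes around this pathway were taken from 4 lists, with 1 probe per gene, the brightest. Among other acyl-CoA synthetases 9 of 18 listed genes were tested, and 0 passed limma between elaidic acid and control, with 3 at an unadjusted p under 0.05, as had 14.3% of all probes. Between the isomers 1 passed, where 0.318% of all probes did. This was ACSS2, which makes acetyl-CoA from acetate, at 2.60 ± 0.50 (SE, n = 4 per group; limma adjusted p = 0.0409) and 1.88 ± 0.53 within series A. Against control ACSS2 was at 2.28 ± 0.50 (limma adjusted p = 0.0731) and AACS, which activates acetoacetate, at 0.63 ± 0.25 (limma adjusted p = 0.284). The list's median was 0.11 in both comparisons, where all probes had -0.10 and -0.13. Against control with stearic acid 3 passed higher, ACSS2, AACS and ACSM3, a medium-chain synthetase, and 1 lower, ACSBG1, where 15% of all probes passed higher and 14.8% lower, and 0 did with the slide series block.

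Among fatty acid and acyl-CoA binding proteins 9 of 14 genes were tested, and 1 passed between elaidic acid and control, where 0.323% of all probes did. This was FABP1, the liver fatty acid binding protein, at 2.23 ± 0.43 (SE, n = 4 per group; limma adjusted p = 0.0404). With the slide series block it was at 1.77 ± 0.50 and did not pass (limma adjusted p = 0.352). Its other probe had 2.14 and did not pass (limma adjusted p = 0.104). Between the isomers, where 0.318% of all probes passed, FABP1 passed at 2.48 ± 0.43 (limma adjusted p = 0.0242). ACBD6, an acyl-CoA binding protein related to DBI, passed at 1.60 ± 0.31 (limma adjusted p = 0.0446). Within series A FABP1 was at 2.02 ± 0.50 and ACBD6 at 1.18 ± 0.34, and neither passed. The other probe of FABP1 passed between the isomers as well, at 2.68 ± 0.52 (limma adjusted p = 0.0434), and was at 2.08 with the block. GOT2, the mitochondrial aspartate aminotransferase that is also found at the plasma membrane, was 3.12 ± 0.75 higher with stearic acid than in control and -0.14 ± 0.84 with the block. SCP2, a lipid carrier of peroxisomes, was likewise at 2.25 ± 0.57 and -0.23 ± 0.63. In all, 4 of this list passed higher with stearic acid, FABP1, ACBD6, SCP2 and GOT2, and 1 lower, FABP6, beside the same 15% and 14.8% of all probes, and 0 did with the block.

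Acyl-CoA thioesterases and related hydrolases, which release the fatty acid again, had 7 of 13 genes tested and 0 passed limma between elaidic acid and control or between the isomers, with 3 at an unadjusted p under 0.05 in each (14.3% and 18.9% of all probes). ACOT7 was at 1.11 ± 0.37 against control (SE, n = 4 per group; limma adjusted p = 0.216) and PPT1, a lysosomal palmitoyl-protein thioesterase, at 1.57 ± 0.59 (limma adjusted p = 0.259). The other probe of ACOT7 had 0.73 and did not pass (limma adjusted p = 0.455). With the slide series block the first probe of ACOT7 was at 0.69 and the other at -0.0012. With stearic acid ACOT7, ACOT8 and PPT1 passed higher than control and THEM4 lower, where 15% of all probes passed higher and 14.8% lower. The other probe of THEM4 had a value of 0.89 above control that did not pass (limma adjusted p = 0.0977). ACOT9 and ACOT11 passed only between oleic and stearic acid among the 6 comparisons, as did 39.5% of all probes there. ACOT11 was at 1.16, where its other probe was at 0.42 and did not pass (limma adjusted p = 0.529). With the block 0 of the 7 passed in any comparison.

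Among enzymes that use acyl-CoA, 10 of 15 were tested, and 0 passed limma between elaidic acid and control, with 5 at an unadjusted p under 0.05 (14.3% of all probes). SOAT1, which makes cholesterol esters, was at 0.99 ± 0.22 (SE, n = 4 per group; limma adjusted p = 0.0788). DGAT2, which makes triglycerides, was at 0.73 ± 0.18 (limma adjusted p = 0.108), or 0.88 ± 0.20 within series A. Between the isomers, where 0.318% of all probes passed, SOAT1 passed at 1.09 ± 0.22 (limma adjusted p = 0.0488), and within series A it was at 0.87 ± 0.25. Its other probe had 1.11 and did not pass (limma adjusted p = 0.174). The list's median was 0.66 against control and 0.64 between the isomers, or 0.36 and 0.32 with the block. With stearic acid 4 passed higher than control, AGPAT2, DGAT2, SOAT1 and ACADM, and 1 lower, AGPAT3, against 15% and 14.8% of all probes. SOAT2 passed only between oleic and stearic acid among the 6 comparisons, where 39.5% of all probes passed. With the block 0 passed.

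**Figure D4:**
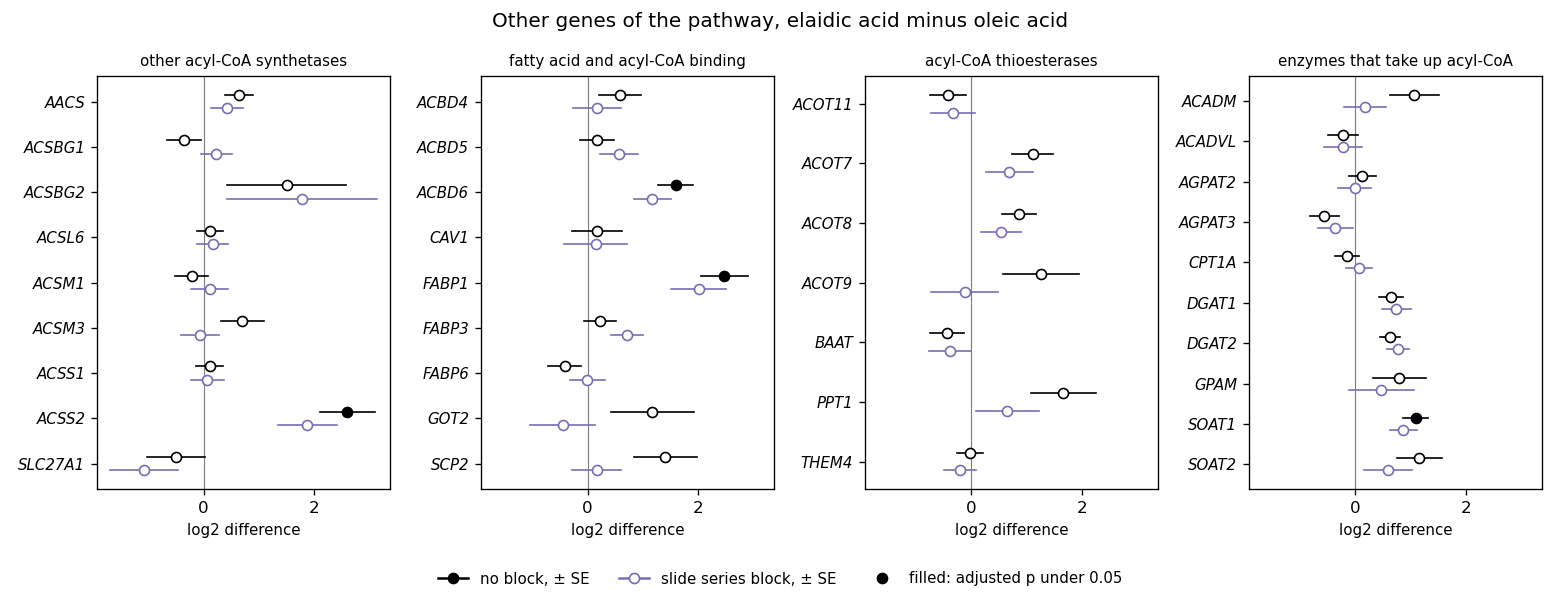
Log2 difference between elaidic and oleic acid (horizontal axes, ± SE) of the tested genes in the 4 lists around the pathway, 1 panel per list. Black is limma over all 16 samples, violet the same model with slide series as a block, and filled points passed an adjusted p under 0.05. ACSS2, ACBD6, FABP1 and SOAT1 are filled in black at 2.60, 1.60, 2.48 and 1.09, and no violet point is filled.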

How the data were processed

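Total RNA of 16 HepG2 samples was amplified with aminoallyl-UTP, coupled to Cy5 and hybridised to 1-colour arrays, per the labels' protocols, with 2 technical replicate arrays per sample. The deposited table holds 1 intensity per probe and sample on a linear scale, with values below 0. How the authors subtracted background and combined the arrays, and which build annotated the probes, is not given in the sources used here. Of 30968 probes, 17397 carry a single symbol and 13571 none. Since 0 and negative values have no logarithm, 8029 probes (25.9%) that held one were not fitted. The others were converted to log2 from the deposited intensity, quantile normalised and fitted in R 4.3.3 by the functions lmFit and eBayes of limma 3.58.1 (two-sided tests, 16 samples, 1 mean per group). Left-out members were scaled to the median and compared by exact permutation. The model was run on simulated data with independent noise and no slide series effect, so that run says nothing about that effect here. The number of arrays limits the precision. Every member probe was reported. From each list, genes that passed in any comparison were named, or the 2 of smallest p in elaidic acid against control. Members, lists and tests were chosen with earlier results of these data known. Figures were drawn with matplotlib 3.10.9. Alternatives covered normalisation, floor and offset, dim probes, array weights, blocks, samples in the fit and each sample left out. Fits within 1 slide series and the floored fit of left-out members were added after seeing the data.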

Additional observations from a re-analysis of the deposited data

How the results depend on the processing

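Members called by limma went from 1 to 0 between elaidic acid and control without normalisation, with the slide series block, with the replicate block, with only the 2 groups and in series A alone, and to 3 with array weights. Between the isomers they went from 1 to 0 under these same first 5 settings and to 4 with array weights. With the brighter 50% of probes 2 of 4 tested members passed. Of 22939 probes 73 passed between the isomers, against 2, 5, 4, 0 and 0 under those 5 settings in that order. It was 8953 with array weights and 180 of 11470 brighter probes. From 3 between stearic acid and control members called went to 5 with median scaling, 5 with array weights and 0 with the slide series block. They were 2 without normalisation, with values floored at 1 and with an offset of 50. With cyclic loess and with only the 2 groups they were 4. With the brighter 50% of probes 2 of 4 tested members passed, and ACSL3 and SLC27A2 were not in that fit. Of 22939 probes 6825 passed in the main fit, 6762 with median scaling, 10585 with array weights and 0 with the block. The count was 3099 without normalisation, 6817 with cyclic loess and 7762 with only the 2 groups. It was 5224 of 30968 with the floor, 7772 of 30968 with the offset and 6394 of 11470 brighter probes. From 4 between oleic and stearic acid members called went to 0 with the slide series block and to 5 with array weights or only the 2 groups. There they went to 3 with values floored at 1. With the brighter 50% of probes 3 of 4 tested members passed there, and SLC27A2 was not in that fit. Of 22939 probes 9057 passed there in the main fit, 0 with the block, 13525 with array weights and 10509 with only the 2 groups. It was 7284 of 30968 with the floor and 7294 of 11470 brighter probes. From 0 between elaidic and stearic acid members called went to 1 with array weights, while all probes called went from 91 to 1030. Leaving out 1 sample gave 0 to 1 between elaidic acid and control, 0 to 1 between the isomers, 0 to 4 between stearic acid and control and 2 to 4 between oleic and stearic acid. Of all 22939 probes 25 to 115, 3 to 191, 3571 to 8213 and 4766 to 8520 passed in these fits, in the same order. Over all probes, the call count between elaidic acid and control was 74, against 0 without normalisation, 9 with the slide series block, 28 with the replicate block and 4656 with array weights. It was 0 with only the 2 groups and in series A alone. With the replicate block ACSL4 was at limma adjusted p = 0.068 against control and 0.0846 between the isomers. Of 24 same-numbered pairs of samples 7 correlated above 0.1 (-0.462 to 0.364). Pairs with unlike numbers were not set beside them, so that whether the numbers pair the samples was not settled. Without normalisation the median of all probes moved from -0.18 to 0.26 between stearic acid and control.

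Signs turned for the following values, none of which passed unless stated. With the slide series block, between elaidic acid and control, ACSL5 was at -0.17, SLC27A2 at -0.34 and SLC27A4 at 0.53, the same as in series A alone. Between stearic acid and control, ACSL1 was at -0.55, ACSL3 at -0.41, ACSL5 at -0.0055, SLC27A2 at -0.0655 and SLC27A4 at 1.10 with that block, where ACSL3 and SLC27A2 had passed without it. Between the isomers SLC27A2 was at -0.0104 with the block and in series A alone. Between elaidic and stearic acid SLC27A4 was at -0.57 and DBI at 0.37 with the block and in series B alone. Between oleic and stearic acid ACSL1 was at 0.48 and ACSL3 at 1.18 with the block. Without normalisation, ACSL4 was at -0.0927 between oleic acid and control, SLC27A4 at 0.24 between stearic acid and control, and ACSL1 at -0.37, ACSL3 at -0.0525 and SLC27A4 at -0.36 between elaidic and stearic acid. Median scaling gave -0.0433 for ACSL1 and -0.0325 for SLC27A4 there, and cyclic loess -0.0266 for SLC27A4. Array weights gave 0.40 for ACSL1 and 0.0061 for SLC27A2 between oleic acid and control, and -0.16 for SLC27A4 and 0.19 for DBI between elaidic and stearic acid. On linear scaled intensity ACBD3 was at -13.6 and -11.1 in series A, against 37.4 and 39.9 over all samples, for elaidic acid against control and oleic acid, and at 2.66 in series B against stearic acid. SLC27A5 was at 0.60 between stearic acid and control in the floored limma fit on log2. In that fit with the slide series block, ACBD3 was at -3.17 between elaidic acid and control (which passed), -3.06 between the isomers, -3.26 between stearic acid and control, 0.0902 between elaidic and stearic acid and 3.15 between oleic and stearic acid, and SLC27A5 at 1.33 between oleic and stearic acid. The cause of these changes was not tested.

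Leaving out 1 sample turned the sign of values that had not passed, with ranges of -0.33 to 0.23 for ACSL1, -0.0665 to 0.14 for ACSL4, -0.90 to 0.0437 for SLC27A4 and, on the linear scale, -5.34 to 1.03 for ACBD3 between oleic acid and control. The ranges were -0.11 to 0.32 for ACSL5 and -0.54 to 0.40 for SLC27A4 between elaidic acid and control, and -0.10 to 0.62 for SLC27A4 and, linear, -3.18 to 0.98 for SLC27A5 between the isomers. They were -0.0815 to 0.40 for ACSL1, -0.46 to 0.52 for ACSL3, -0.32 to 0.0628 for DBI and -0.46 to 0.33 for SLC27A4 between elaidic and stearic acid. Between stearic acid and control they were -0.59 to 0.37 for SLC27A4 and, linear, -1.48 to 3.32 for CD36 and -5.41 to 2.12 for SLC27A5. ACSL4 kept its sign in every alternative run between elaidic acid and control and between the isomers. Low signal over background limits ACSL3, SLC27A2, SLC27A4, SLC27A5, CD36 and ACBD3.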
